A study of Mus musculus with 11 samples.

Results

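Desmosomes are cell-cell junctions that tie the keratin filaments of neighbouring epithelial cells together, and 10 of their genes were followed in skin and small intestine of mice that received vehicle cream or imiquimod (IMQ) cream. The 10 genes were chosen by name, out of 45777 genes in the deposited table, and all 10 were found there: the desmogleins *Dsg1a*, *Dsg1b*, *Dsg2* and *Dsg3*, the desmocollins *Dsc1*, *Dsc2* and *Dsc3*, and the plaque genes *Dsp*, *Pkp1* and *Jup*. IMQ is a ligand of Toll-like receptor 7 that induces psoriasis-like dermatitis when it is applied to the skin. The animals were BALB/c mice of either sex, 8 to 10 weeks old at treatment, and no genetic change was stated for them. Mice of the IMQ groups received 62.5 mg of a 5% IMQ cream (Aldara) each day, and control mice received Vaseline. The sample annotation gives 5 to 8 days of cream, with the right ear treated as well as the back, the methods give a shorter course on the back, and the days of each mouse are not stated. Skin gave 3 control libraries (numbers 1 to 3) and 3 IMQ libraries (4 to 6), and small intestine gave 3 control libraries (7 to 9) and 2 IMQ libraries (10 and 11). Which tissues came from 1 mouse is not stated, and whether each library is 1 mouse is not stated either, so p-values measure the spread between these libraries. The cream was put on the skin, so the small intestine was a remote tissue.

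A desmosome holds 2 families of membrane proteins, the desmogleins and the desmocollins, which are cadherins that bind across the gap between cells. Inside the cell their tails bind plakoglobin (the product of *Jup*) and plakophilins (such as that of *Pkp1*), and desmoplakin (the product of *Dsp*) links this plaque to keratin filaments. In stratified epithelium such as epidermis, desmoglein 1 and desmocollin 1 are known from the upper layers and desmoglein 3 and desmocollin 3 from the lower layers, whereas desmoglein 2 and desmocollin 2 are the pair of simple epithelia such as the intestinal lining. The 7 cadherin genes lie in a single cluster on mouse chromosome 18, together with *Dsg1c* and *Dsg4*, between positions 19960930 and 20604526 of GRCm38. *Dsp* is on chromosome 13 (38151294 to 38198577), *Pkp1* on chromosome 1 (135871394 to 135919207) and *Jup* on chromosome 11 (100368856 to 100397839).

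The libraries held 44995414 to 58526384 counts, and replicates differed by far more than sampling noise. The tissue labels fitted the markers of each tissue: 8 of 8 keratinocyte genes were higher in control skin than in control intestine, and 12 of 12 intestinal epithelium genes were lower. The skin libraries were not uniform. The summed normalized count of 14 hair follicle genes was 81159 in skin control 1 and 125226 in skin control 3, but 885 in skin control 2 and 614 to 964 in the IMQ skin libraries. The intestinal epithelium genes reached a median of 1.13% of the control intestine in skin control 2, against at most 0.0370% in the other skin libraries. Calls of desmosome genes in skin are therefore given below with and without skin control 2, and with the hair follicle score (the mean log2 level of these genes) as a covariate. By the sums above, this score differs from treatment mainly through skin control 2. A call lost or a sign changed with the covariate therefore cannot tell hair follicle content and treatment apart. The 5 leukocyte genes were higher with IMQ in both tissues, by a median of 1.22 in skin and 1.71 in small intestine on the log2 scale. In whole tissue, fewer cells of a type and less RNA per cell cannot be told apart.

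In control skin the desmosome genes covered a wide range of levels, which can be compared between genes in FPKM, that is, fragments scaled by transcript length and by library size. *Dsp* was at the top with 223 ± 73.8 FPKM (SD, n = 3), followed by *Pkp1* with 164 ± 41.8, *Dsg1a* with 157 ± 84.3, *Jup* with 139 ± 19.0, *Dsc3* with 129 ± 41.7 and *Dsc1* with 87.0 ± 47.0. The ranges of neighbours in this order overlapped down to *Dsg1b*, at 46.3 ± 21.3 FPKM. Below it, with no overlap at either step, came *Dsg3* at 15.8 ± 3.68 FPKM and *Dsg2* at 6.22 ± 0.641 FPKM. *Dsc2* was the lowest at 4.20 ± 1.16 FPKM, a level whose range overlapped that of *Dsg2*. The leading 6, from *Dsp* to *Dsc1*, ranked from 233 to 613 among 21949 protein-coding genes of control skin.

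In control small intestine the order was another one. *Jup* led with 55.0 ± 0.458 FPKM (SD, n = 3), above the ranges of *Dsg2* at 47.1 ± 8.99, *Dsc2* at 44.2 ± 5.81 and *Dsp* at 41.6 ± 3.94, which overlapped in turn. *Pkp1* followed at 5.37 ± 0.907 FPKM. The remaining cadherins were at or near 0 in the intestine, as raw counts show best. *Dsg3* had 0 counts in all 5 intestinal libraries. *Dsg1a* had 7 counts and *Dsg1b* had 2 counts, all in intestine control 9, a library that also held 40 counts of *Krt14* and 26 of *Krt5*, keratins of the basal epidermis. *Dsc1* had 3 counts in intestine IMQ 10 and 0 elsewhere, and *Dsc3* had 8, 14 and 12 counts in the controls, 10 in IMQ 10 and 0 in IMQ 11. *Dsc3* was thus above the floor of 3 counts in every control library, and for the other 4 genes the level was at or near that floor in most libraries.

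**Figure D1:**
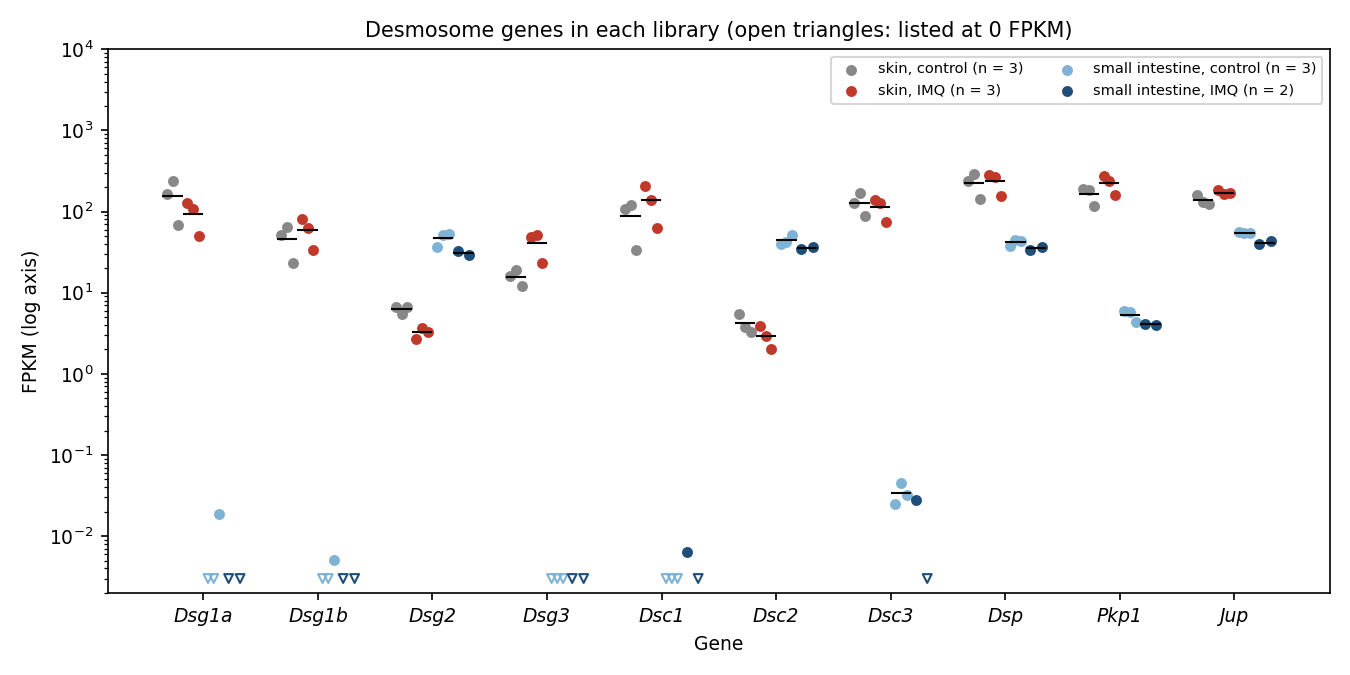
FPKM of the 10 desmosome genes in each of 11 libraries on a log axis, with points for libraries, black bars for group means where every library is above 0, and open triangles for libraries listed at 0 FPKM. *Dsg2* and *Dsc2* sit higher in small intestine than in skin, the other 8 genes sit higher in skin, and *Dsg1a*, *Dsg1b*, *Dsg3* and *Dsc1* are listed at 0 in most intestinal libraries.

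Both members of the simple-epithelium pair were lower in skin. In control skin against control intestine, in counts normalized over all 11 libraries, *Dsg2* had 1738 ± 62.8 against 18163 ± 3514, a log2 difference of -3.39 (SE 0.17, adjusted p = 2.65e-07, Benjamini-Hochberg adjustment of the quasi-likelihood test in edgeR). *Dsc2* had 940 ± 246 against 13630 ± 2335, a log2 difference of -3.86 (SE 0.30, adjusted p = 2.79e-06). The plaque genes were higher in skin, by log2 differences of 4.48 for *Pkp1* (SE 0.32, adjusted p = 1.52e-06, edgeR), 2.01 for *Dsp* (SE 0.33, adjusted p = 0.000453) and 1.21 for *Jup* (SE 0.20, adjusted p = 0.000399). Among the plaque genes the tissue difference of *Pkp1* was thus the largest, with a 95% interval of 3.78 to 5.19 that lies above those of *Dsp* (1.27 to 2.76) and *Jup* (0.77 to 1.65).

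*Dsg1a*, *Dsg1b*, *Dsg3*, *Dsc1* and *Dsc3* entered this comparison through their counts in skin, so a call was bound to follow. *Dsc3* had 33849 ± 13228 normalized counts in control skin against 13.1 ± 3.08 in control intestine, a log2 difference of 11.32 (SE 0.70, edgeR), which was 6.92 on the log2(FPKM + 1) scale with limma. Against the floor of 3 counts in each library, *Dsg3* was at least 920-fold and *Dsc1* at least 6149-fold higher in control skin, and no fold is given for *Dsg1a* and *Dsg1b*, whose intestinal counts came from 1 library. All 10 members passed the threshold between the tissues, where 60.1% of 21647 genes tested passed it. For the genes that entered through their counts in skin this call was bound to follow, so it is not a result. The 7 cadherins also made up different mixtures. In control intestine *Dsg2* took 51.4% ± 3.58 and *Dsc2* 48.6% ± 3.59 of the summed cadherin FPKM. In control skin the same pair took 1.69% ± 1.01 and 1.05% ± 0.402, while *Dsg1a* took 34.0% ± 4.36, *Dsc3* 30.5% ± 5.81, *Dsc1* 18.6% ± 4.10, *Dsg1b* 10.3% ± 0.468 and *Dsg3* 3.86% ± 1.09.

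*Jup* and *Dsp* were the members abundant in both tissues whose promoters the RefSeq table of GRCm38.p6 holds, so the 200 bases upstream of the outermost annotated start of each gene are shown. The *Jup* window is chr11:100397840-100398039 on the minus strand and the *Dsp* window chr13:38151094-38151293 on the plus strand. Both are written 5′ to 3′, with matches to the GC box GGGCGG on either strand in capitals, a sequence known to bind Sp-family factors.
Jup: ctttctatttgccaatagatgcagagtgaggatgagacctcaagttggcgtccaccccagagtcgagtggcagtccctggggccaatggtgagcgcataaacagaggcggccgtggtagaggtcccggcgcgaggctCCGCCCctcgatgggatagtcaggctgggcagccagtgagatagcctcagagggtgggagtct
Dsp: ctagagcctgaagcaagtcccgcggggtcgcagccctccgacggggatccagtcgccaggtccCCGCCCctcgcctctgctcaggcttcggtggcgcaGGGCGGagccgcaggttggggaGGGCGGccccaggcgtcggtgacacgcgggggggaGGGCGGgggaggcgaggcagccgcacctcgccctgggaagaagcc
The *Dsp* window held 4 GC boxes, at 137, 102, 80 and 45 bases upstream, and the *Jup* window held 1, at 63 bases. Of 32851 promoter windows of this length, 31.0% held at least 1. Those windows end at the listed promoter start, which can lie downstream of the outermost annotated start used for *Jup* and *Dsp*. The GC content was 75.5% for *Dsp* and 60.5% for *Jup*, against a median of 53.0%. Neither window held the AP-1 motif TGANTCA, the grainyhead motif AACCNGTT or the TATA box TATAAA, which were found in 5.48%, 1.45% and 9.96% of all windows.

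In skin, 1 of the 10 members passed the threshold between IMQ and control. *Dsg2* fell, *Dsg3* was higher in every IMQ library without passing the test, and the other 8 had overlapping groups. The median log2 fold change of the 10 was 0.21, against -0.01 over all genes tested, with 6 above 0 and 4 below. One call in 10 stands beside a background of 6.74% of 20512 genes called in this comparison, and 2 members without overlap between the groups stand beside 28.4% of all genes.

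*Dsg2*, the desmoglein of simple epithelia, had 1987, 1776 and 1968 normalized counts in the control skin libraries 1 to 3. In the IMQ libraries 4 to 6 it had 900, 1177 and 1022. Every IMQ library was below every control library. The log2 fold change was -0.89 (SE 0.13, 95% interval -1.20 to -0.57, adjusted p = 0.0147, edgeR), from 1911 ± 117 to 1033 ± 139. Without skin control 2 the value was -0.94 (adjusted p = 0.0130). The call was lost without control 1 (adjusted p = 0.0744), without IMQ 4 (0.0554), without IMQ 6 (0.0514) and with the hair follicle score as a covariate, where the log2 fold change was -0.78 (adjusted p = 0.0757). A level of 1.13% of the control intestine would make up 12.3% of the *Dsg2* value and 16.6% of the *Dsc2* value in skin control 2. The part of hair follicle content in the *Dsg2* result cannot be told from treatment by this covariate and was not tested otherwise.

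*Dsg3*, the desmoglein of the lower epidermal layers and the antigen of pemphigus vulgaris, had 3488, 4484 and 2556 normalized counts in control skin. It had 11397, 11786 and 5109 with IMQ. The lowest IMQ library was above the highest control library, and IMQ 6 lay well below the other two. The log2 fold change was 1.43 (SE 0.35, 95% interval 0.59 to 2.26), with an unadjusted p = 0.00509 and an adjusted p = 0.0620 that missed the threshold in edgeR. It passed in DESeq2 (adjusted p = 0.00149) and in edgeR without IMQ 6 (log2 fold change 1.73, adjusted p = 0.0272). With the hair follicle score as a covariate the log2 fold change was 1.06 (adjusted p = 0.309), and without skin control 2 it was 1.64 (adjusted p = 0.0527).

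The paralogs *Dsg1a* and *Dsg1b* encode desmoglein 1, the desmoglein of the upper epidermis and the antigen of pemphigus foliaceus. *Dsg1a* had 48343, 74803 and 20066 normalized counts in control skin and 40661, 32723 and 14971 with IMQ, and its log2 fold change was -0.70 (SE 0.53, adjusted p = 0.484, edgeR), which was -0.21 without control 2 (adjusted p = 0.835) and -1.40 with the hair follicle covariate (adjusted p = 0.278). *Dsg1b* had 16029, 21527 and 7059 in controls and 27750, 20438 and 10716 with IMQ, and its log2 fold change was 0.40 (SE 0.47, adjusted p = 0.667). Neither passed, and in both genes control 3 and IMQ 6 were the lowest of their groups. Of the 100-base words in their annotated transcripts, 24.6% for *Dsg1a* and 32.8% for *Dsg1b* also occur in another desmoglein 1 gene, so the split of reads between them is uncertain. The other 8 members share no such word with another gene.

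Among the desmocollins, *Dsc1* had 27927, 33708 and 8570 normalized counts in control skin and 59216, 38484 and 16965 with IMQ. The groups overlapped, and the log2 fold change of 0.71 (SE 0.59) had an adjusted p = 0.529. *Dsc3*, the desmocollin of the lower layers, had 35933, 50950 and 23996 in controls and 42409, 37960 and 21462 with IMQ, with a log2 fold change of -0.12 (SE 0.35, adjusted p = 0.873, edgeR). *Dsc2* had 1327, 987 and 782 in controls and 1033, 744 and 498 with IMQ, with a log2 fold change of -0.45 (SE 0.30, adjusted p = 0.434). The intervals were wide: that of *Dsc1* ran from -0.70 to 2.11 and that of *Dsc3* from -0.95 to 0.70, so a log2 change of 1 in *Dsc1* was within what these libraries allow.

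The plaque genes did not pass in skin either. *Dsp* had 112050, 146851 and 66329 normalized counts in controls and 145886, 130442 and 75581 with IMQ, a log2 fold change of 0.11 (SE 0.37, adjusted p = 0.897, edgeR). *Pkp1*, whose loss causes a skin fragility syndrome, had 46448, 48488 and 27817 in controls and 73485, 60959 and 39696 with IMQ, a log2 fold change of 0.50 (SE 0.31, adjusted p = 0.379). *Jup* had 38816, 36011 and 28544 in controls and 51733, 42806 and 33928 with IMQ, a log2 fold change of 0.31 (SE 0.21, adjusted p = 0.430). In FPKM, *Jup* was higher in every IMQ library (162 to 185) than in any control (124 to 161). In normalized counts, control 3 and IMQ 6 were again the lowest library of each group in all 3 genes. The sum of the 10 members was 187687 normalized counts in control 3 and 219947 in IMQ 6, against 332348 to 454469 in the other 4 skin libraries.

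**Figure D2:**
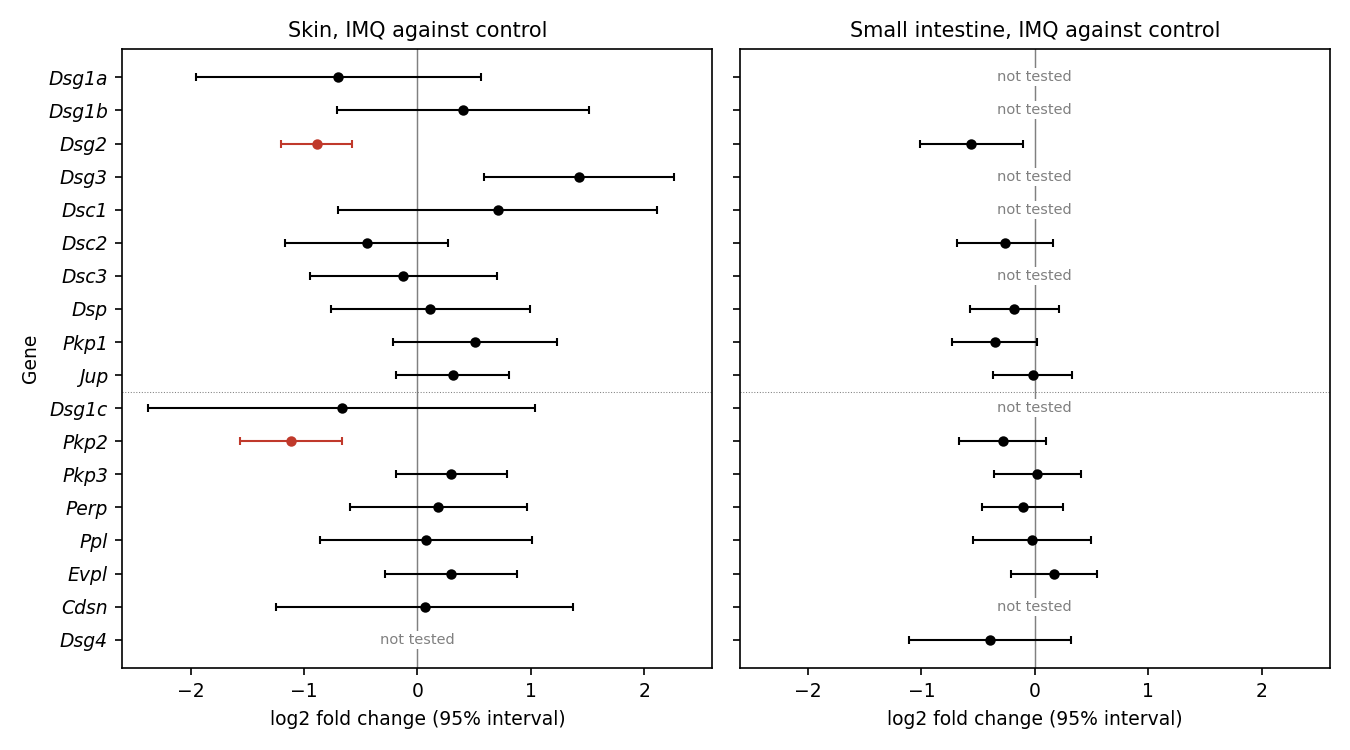
Log2 fold changes of IMQ against control in skin (left) and small intestine (right) with 95% intervals, for the 10 members above the dotted line and 8 further desmosome and envelope junction genes below it. Red marks an adjusted p under 0.05 in edgeR, which *Dsg2* and *Pkp2* reached in skin at log2 fold changes of -0.89 and -1.11, and no gene reached in small intestine.

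Ratios between genes of the same library are given as log2 ratios of FPKM with no test. *Dsg3* to the sum of *Dsg1a* and *Dsg1b* was -3.74, -3.97 and -2.94 in control skin and -2.11, -1.70 and -1.85 with IMQ. The groups did not overlap, and their means differed by 1.66. *Dsg2* to *Dsg3* was -1.29, -1.82 and -0.86 in controls and -4.14, -3.80 and -2.80 with IMQ, a difference of -2.26 without overlap. *Dsc3* to *Dsc1* was 0.27, 0.50 and 1.39 in controls and -0.58, -0.12 and 0.24 with IMQ, a difference of -0.87 in which the nearest libraries of the groups almost met without overlapping. Control 3 and IMQ 6 had the highest value of their groups for *Dsg2* to *Dsg3* and for *Dsc3* to *Dsc1*. With IMQ the lower-layer *Dsg3* was thus higher relative to the upper-layer *Dsg1a* plus *Dsg1b*. The lower-layer *Dsc3* was lower relative to the upper-layer *Dsc1*, while its share among all 7 cadherins overlapped between the groups.

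*Dsg1b* to *Dsg1a*, a ratio added after the values had been seen, was -1.68, -1.88 and -1.59 in control skin and -0.63, -0.77 and -0.56 with IMQ. The SDs were 0.15 and 0.10 around a difference of 1.06, and the shared words of both genes limit the ratio as above. *Dsc2* to *Dsc3* and *Pkp3* to *Pkp1* overlapped between the groups. Relative to the mean FPKM of 6 pan-epithelial genes, *Dsg3* differed by 1.54, *Pkp1* by 0.67 and *Jup* by 0.53 without overlap, and *Dsg2* by -0.72 without overlap. The groups overlapped for *Dsg1a*, *Dsg1b*, *Dsc1*, *Dsc2*, *Dsc3* and *Dsp*. For ratios and shares, how many of all genes lack overlap was not computed, so these separations have no background beside them. In skin 5 of these 6 genes had log2 fold changes below 0, and *Elf3* was called higher with IMQ (1.35, adjusted p = 0.0363, edgeR). Both *Cldn7* and *Elf3* were low there, at up to 3.20 and 4.47 FPKM, and weigh little in the mean. When *Cdh1*, the cadherin of adherens junctions, replaced these 6 genes, *Dsg3* and *Pkp1* stayed without overlap at 1.48 and 0.61, while *Dsg2* at -0.79 and *Jup* at 0.47 overlapped.

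**Figure D3:**
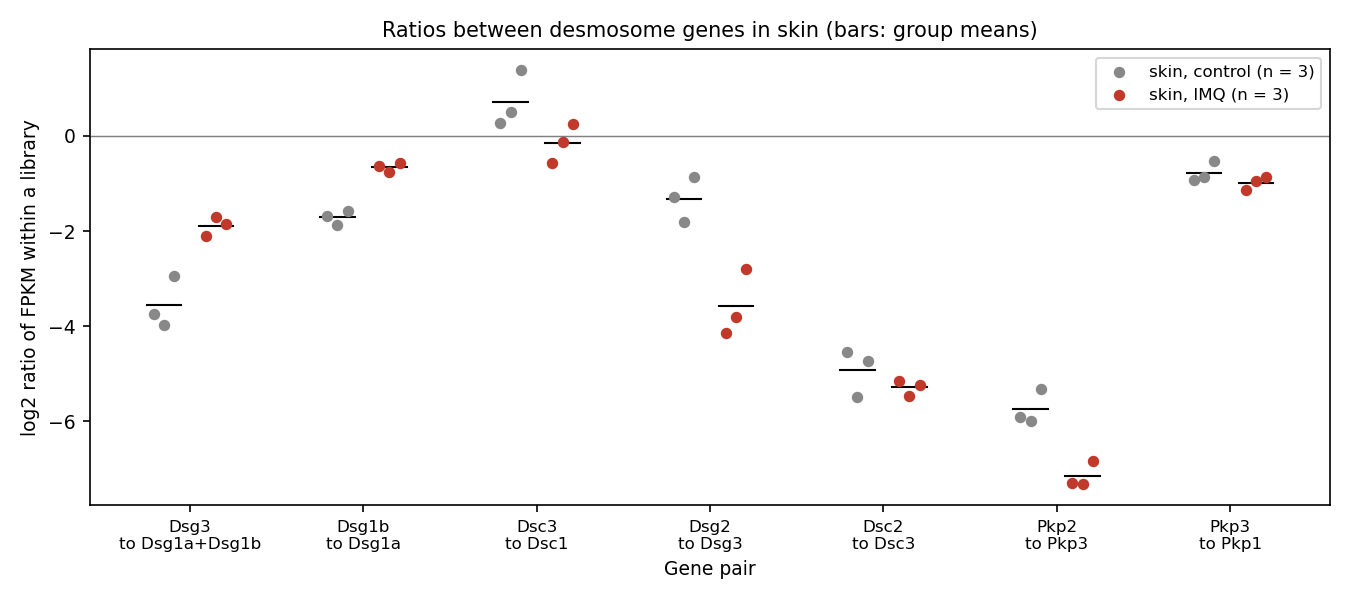
Log2 ratios of FPKM between pairs of desmosome genes within each skin library, with grey points for 3 control libraries, red points for 3 IMQ libraries and bars for group means. The groups are apart for *Dsg3* to *Dsg1a* plus *Dsg1b*, *Dsg1b* to *Dsg1a*, *Dsc3* to *Dsc1*, *Dsg2* to *Dsg3* and *Pkp2* to *Pkp3*, and overlap for *Dsc2* to *Dsc3* and *Pkp3* to *Pkp1*.

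The cadherin mixture shows the same values as shares. *Dsg1a* took 34.3%, 38.2% and 29.5% of the cadherin FPKM in control skin and 20.8%, 21.4% and 19.8% with IMQ. *Dsg3* took 3.86% ± 1.09 in controls and 9.17% ± 1.27 with IMQ, and *Dsc1* 18.6% ± 4.10 and 29.2% ± 4.42. The shares of *Dsg1a* were below every control library in all 3 IMQ libraries. The share of *Dsc3* was 30.5% ± 5.81 in controls and 26.3% ± 3.61 with IMQ, and those of *Dsg2* and *Dsc2* were 0.837% ± 0.444 and 0.677% ± 0.111 with IMQ. Control 2 had the highest *Dsg1a* share of all. Its hair follicle genes were at the level of the IMQ libraries, and a relation of that level to the share was not tested.

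**Figure D4:**
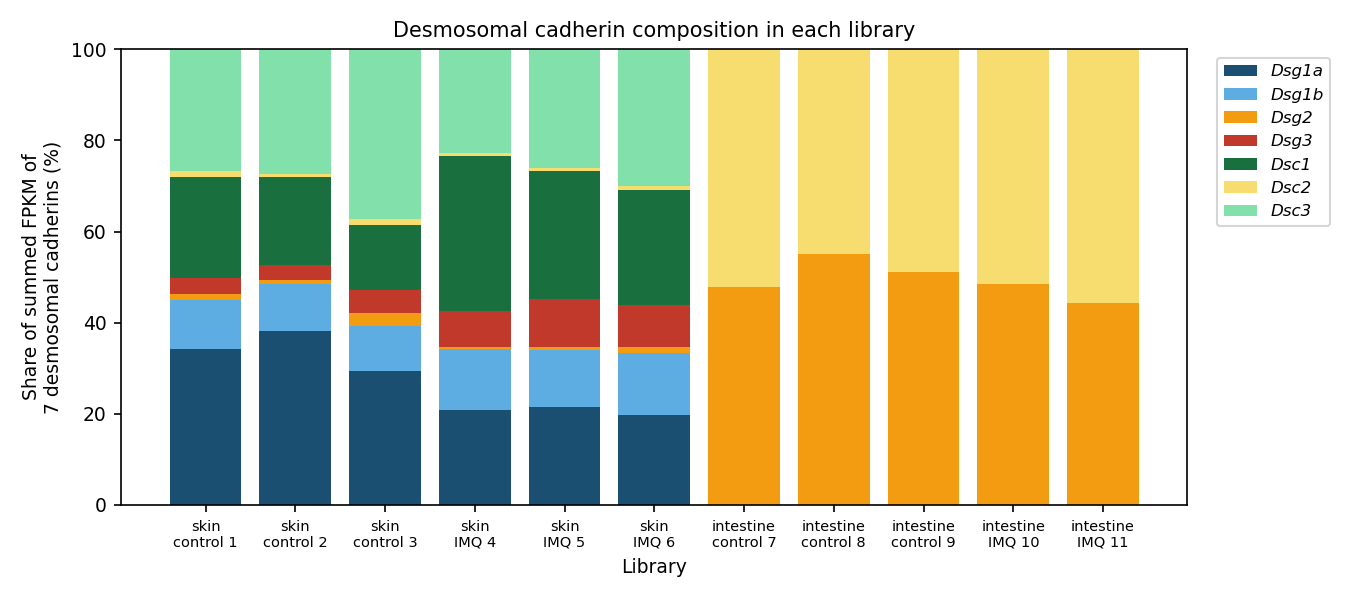
Share of each of 7 desmosomal cadherins in their summed FPKM, one stacked bar per library. Skin holds mainly *Dsg1a*, *Dsc3*, *Dsc1* and *Dsg1b*, with the *Dsg1a* share at 19.8% to 21.4% in IMQ skin against 29.5% to 38.2% in control skin, and small intestine holds *Dsg2* and *Dsc2*, with each gene between 44.4% and 55.6% in every library.

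In small intestine, none of the 5 members tested passed the threshold in edgeR, DESeq2 or limma-voom, beside a background of 2.95% of 19965 genes. All 5 log2 fold changes were below 0, with a median of -0.26 against -0.02 over all genes, and 1 of the 5 had an unadjusted p under 0.05. The 6 pan-epithelial genes were also all below 0, with a median of -0.30. Relative to their mean FPKM, the log2 level of *Dsg2* differed by -0.22, *Dsc2* by 0.07, *Dsp* by 0.12, *Pkp1* by -0.03 and *Jup* by -0.05 between IMQ and control, and the groups overlapped for all but *Dsp*. The remaining members had too few counts to be tested. In this comparison *Dsg2* and *Pkp1* were lower in both IMQ libraries than in any control, where 29.1% of all genes had no overlap.

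*Dsg2* had 12471, 16080 and 18574 normalized counts in the intestine controls 7 to 9. It had 10772 and 10550 in IMQ 10 and 11. The IMQ libraries were the lowest, and the log2 fold change was -0.56 (SE 0.19, 95% interval -1.02 to -0.10, unadjusted p = 0.0232, adjusted p = 0.269, edgeR). Its partner *Dsc2* had 10800, 10456 and 14093 in controls and 9125 and 10531 with IMQ, with a log2 fold change of -0.26 (SE 0.18, adjusted p = 0.668). With IMQ the cadherin FPKM was 46.4% ± 2.87 *Dsg2* and 53.6% ± 2.91 *Dsc2* (n = 2), and the log2 ratio of *Dsc2* to *Dsg2* overlapped between the groups.

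The intestinal plaque genes did not pass the threshold. *Pkp1* had 1645, 1472 and 1220 normalized counts in controls and 1090 and 1171 with IMQ, a log2 fold change of -0.35 (SE 0.16, adjusted p = 0.444, edgeR). *Dsp* had 19254, 21754 and 22755 in controls and 17220 and 20281 with IMQ, a log2 fold change of -0.18 (SE 0.17, adjusted p = 0.769). *Jup* had 12094, 10850 and 12258 in controls and 10568 and 12582 with IMQ, a log2 fold change of -0.02 (SE 0.15, adjusted p = 0.983). For *Jup* the unit mattered here too: its FPKM was 55.5, 54.6 and 54.9 in controls and 39.3 and 43.5 with IMQ, lower in both IMQ libraries, whereas its counts overlapped. The log2(FPKM + 0.01) fold change was -0.41, which also missed the threshold, and the cause of the gap between the units was not tested.

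The IMQ effect of the 5 members tested in both tissues was compared as an interaction, the intestinal effect minus the skin effect. None passed in edgeR, DESeq2 or limma-voom, none had an unadjusted p under 0.05 in edgeR, and 2.55% of 18108 genes passed. *Pkp1* came nearest with -0.85 (SE 0.40, 95% interval -1.72 to 0.03, adjusted p = 0.314, edgeR). The value for *Dsg2*, which was lower in every IMQ library of both tissues, was 0.33 (SE 0.23, 95% interval -0.16 to 0.83, adjusted p = 0.506). Those of *Dsc2*, *Dsp* and *Jup* were 0.19, -0.28 and -0.32. An interaction of 1 on the log2 scale was thus outside the interval for *Dsg2* but not for *Dsc2*, whose interval ran from -0.66 to 1.05.

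Beyond the 10 members, 8 further genes of desmosomes and of the junctions of the cornified envelope were examined. In skin 6.74% of all genes were called. Of these 8 genes 7 were tested there and 1 was called, *Pkp2*, the plakophilin of simple epithelia and heart. It had 254, 257 and 299 normalized counts in control skin and 133, 122 and 119 with IMQ. Each IMQ library lay below each control, and the log2 fold change was -1.11 (SE 0.19, adjusted p = 0.0224, edgeR). Without skin control 2 it remained called. The call was lost without control 1 (adjusted p = 0.0856), without control 3 (0.0534), without IMQ 4 (0.0743), without IMQ 5 (0.114), without IMQ 6 (0.0670) and with the hair follicle covariate (log2 fold change -1.03, adjusted p = 0.0814). Like *Dsg2*, *Pkp2* was more abundant in intestine, at 16.3 ± 1.68 FPKM in control intestine and 1.75 ± 0.217 FPKM in control skin.

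*Pkp3*, *Perp* (a tetraspan membrane protein of desmosomes), the plakins *Ppl* and *Evpl*, and *Cdsn* (corneodesmosin of the uppermost layers) had log2 fold changes of 0.06 to 0.30 in skin, and *Dsg1c* had -0.67, with none called. The log2 ratio of *Pkp2* to *Pkp3* was -5.74 ± 0.36 in control and -7.15 ± 0.27 in IMQ skin, without overlap. *Dsg4*, the desmoglein of the hair shaft, was not tested in skin. It had 382, 9 and 483 counts in the controls and 0 in each IMQ library, so it followed the hair follicle genes in being low in control 2. In small intestine 6 of the 8 were tested and none was called in edgeR, DESeq2 or limma-voom. Over all genes 2.95% were called there in edgeR. None of the 6 had an unadjusted p under 0.05 in edgeR, and log2 fold changes ran from -0.39 for *Dsg4* to 0.17 for *Evpl*.

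The wider junction and keratin lists set these values in context. In skin 6.74% of 20512 genes were called, so 0 or 1 call in a list of 9 or 10 genes does not set that list apart. Of 9 adherens junction genes none was called in skin, from -0.71 for *Afdn* to 0.31 for *Nectin1*, and of 9 hemidesmosome genes none was called, from -0.42 for *Col17a1* to 0.71 for *Itga6*. Of 9 proteases of desmosomal cadherins and their inhibitors, *Klk14*, a kallikrein that degrades desmoglein 1 in the shedding outer layer, rose from 18.4 ± 3.18 to 834 ± 158 normalized counts (log2 fold change 5.50, SE 0.26, adjusted p = 0.000539, edgeR), while the lowest, *Cst6*, was at -0.94 (adjusted p = 0.235). Of 10 epidermal transcription factors none was called, from -0.31 for *Grhl1* to 0.92 for *Grhl3*.

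Desmosomes anchor keratin filaments, and of the keratins in the basal, suprabasal, injury and simple epithelial lists 6 were called in skin, where 6.74% of all genes were called. Among the 4 injury keratins *Krt6a*, *Krt6b* and *Krt16* rose by 3.99, 5.24 and 4.63 on the log2 scale (adjusted p = 0.00558, 0.00770 and 0.00579, edgeR), and *Krt17* was at 0.46. Without skin control 2 all 3 stayed called, and with the hair follicle covariate their log2 fold changes were 4.12, 5.87 and 4.89 at adjusted p of 0.0567, 0.0561 and 0.0567. Of 3 basal keratins *Krt14* rose by 1.41 (adjusted p = 0.0447) and *Krt15* fell by 2.26 (adjusted p = 0.00448, edgeR), and the call of *Krt14* was lost when any 1 skin library was left out (adjusted p = 0.0513 without control 2 to 0.177 without IMQ 5) and with the covariate (log2 fold change 1.17, adjusted p = 0.239). Of 3 suprabasal keratins *Krt2* fell by 7.59 (adjusted p = 0.00641, edgeR), and *Krt1* was at 0.78 without a call. The calls of *Klk14*, *Krt15* and *Krt2* held without skin control 2 and with the covariate. None of the 6 simple epithelial keratins was called in edgeR, from -4.49 for *Krt8* to -1.16 for *Krt18*. The *Krt8* value rested on skin control 2, with 1148 normalized counts against 31.7 and 81.0 in the other controls, and was -1.59 without it (adjusted p = 0.300). *Krt8* passed in DESeq2 (adjusted p = 0.0327) and with the covariate in edgeR (log2 fold change -6.12, adjusted p = 0.0405). In small intestine 9 adherens junction, 9 hemidesmosome, 4 protease or inhibitor and 6 transcription factor genes of these 8 lists were tested. From the basal, suprabasal, injury and simple epithelial keratin lists 1, 1, 0 and 6 were tested. Over all genes 2.95% were called there, so 1 call among these lists does not set them apart. The 1 gene called was *Nectin4*, a nectin of adherens junctions. It rose from 40.3 ± 11.4 to 206 ± 35.9 normalized counts (log2 fold change 2.36, adjusted p = 0.00998, edgeR). That log2 fold change was 2.14 to 2.54 with a library left out, and the call did not hold in every such fit. Under the other alternatives the log2 fold change was 0.73 to 2.39 and the call held. *Nectin4* had 46, 43 and 30 raw counts in the controls and 255 and 163 with IMQ.

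The genes whose levels were most like the mean of the members were found by Pearson's r of log2 normalized counts over 11427 genes with a mean of at least 500. Over all 11 libraries these were *Abca12*, *Lipm*, *Rdh12*, *Aldh3b2* and *Kprp*, all with r = 0.998, where the points fall into a skin and an intestine cluster. Over the 6 skin libraries they were *Fam214a*, *Rnf225*, *Zbtb43*, *Kdm2a* and *Vps54*, with r of 0.995 to 0.998, where the points share the low libraries control 3 and IMQ 6.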

How the data were processed

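RNA of skin and small intestine was sequenced from 11 libraries in 4 groups, made with a stranded mRNA kit and read as 100-bp pairs. The authors trimmed the reads, aligned them to mm10 with HISAT2 2.1.0, quantified genes with StringTie 2.1.3b and deposited raw read counts as whole numbers. FPKM, which the authors scaled by transcript length and library size, stands beside them in the deposited table, as does TPM, which was not used. The handling of strand and of reads that match several genes is not given in the sources used here. *Dsg1a* and *Dsg2* overlap 1 and 2 other annotated genes.

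In R 4.3.3, genes with at least 1 count in every library of a tissue were normalized by relative log expression and tested with the quasi-likelihood test of edgeR 4.0.16, and a Benjamini-Hochberg adjusted p under 0.05 was a call. The tissues were compared over 11 libraries after the filterByExpr filter, and the interaction over genes with a count in all of them. The SE is the log2 fold change divided by the square root of F. Totals of 44995414 to 58526384 counts leave the spread between libraries as the main error of all but the lowest genes. No pair of replicates agreed within sampling noise (chi-square per degree of freedom of 36.9 or more over 10 pairs). The scripts were tested on simulated data with known changes. Promoters came from RefSeq (GRCm38.p6, the patch release of mm10), whose table held 2 of the 10 members, and were read with Python 3.11.15.

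The members and all gene lists were chosen with earlier results of these data known. The genes named are all members, the 8 further desmosome genes and, from each other list, up to 4 called genes plus the lowest and the highest. Alternatives were TMM, DESeq2 1.42.0, limma-voom (limma 3.58.1), another filter and none, limma on FPKM with pseudocounts of 1 and 0.01, one fit of 11 libraries, a hair follicle covariate in skin, each library left out, and ratios of normalized counts. *Cdh1* as reference and the ratio of *Dsg1b* to *Dsg1a* were added after seeing the data.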

Additional observations from a re-analysis of the deposited data

How the results depend on the processing

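The count of members called in skin was 2 with DESeq2 (*Dsg2* and *Dsg3*), 0 with the hair follicle covariate, and 0 to 1 with a library left out. That of the 8 further desmosome genes was 0 with the covariate and 0 to 1 with a library left out. Between the tissues it was 5 when a count in every library was required, since the other members were then not tested. In small intestine and for the interaction no alternative called a member. The count kept within 1.5 times under TMM, limma-voom, filterByExpr, no filter, both FPKM fits and one fit of 11 libraries. With the hair follicle covariate, several log2 fold changes that had not passed in skin changed sign: *Dsg1b* to -0.18, *Dsp* to -0.36, *Perp* to -0.27, *Ppl* to -0.49 and *Cdsn* to -0.44. In small intestine *Pkp3* was -0.020 in both FPKM fits. The log2 ratio to *Cdh1* in place of the pan-epithelial mean differed by -0.050 for *Dsc2* in small intestine and by -0.0046 for *Dsc3* in skin, and that of *Jup* in small intestine by 0.29 in normalized counts, all with a changed sign. The cause was not tested.

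With 1 library left out, values near 0 changed sign. In skin the ranges were -0.36 to 0.18 for *Dsc3*, -0.15 to 0.40 for *Dsp*, -0.048 to 0.45 for *Perp*, -0.23 to 0.43 for *Ppl* and -0.40 to 0.42 for *Cdsn*. In small intestine they were -0.15 to 0.11 for *Jup*, -0.14 to 0.17 for *Pkp3*, -0.24 to 0.017 for *Perp* and -0.34 to 0.23 for *Ppl*, and for the interaction of *Dsc2* -0.038 to 0.48. The log2 fold change of *Dsg1a* in skin kept its sign but ran from -1.07 to -0.21 with a library left out, and from -1.40 to -0.63 under the other alternatives. None of these passed the threshold in any of these fits.

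No paired analysis was possible because no replicate number is shared between groups. With 3 against 3 or 3 against 2 libraries, wide intervals limit the upper-layer genes in skin. For *Dsg1a*, *Dsg1b*, *Dsg3* and *Dsc1* in intestine the limit is their low level, since most libraries had 0 counts.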
